A study of Mus musculus with 8 samples.

Results

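U2 is a small nuclear RNA (snRNA) of the spliceosome, and its copies and variants are described here in mouse GMLPs, a population of blood progenitors, with and without an inducible MLL-ENL fusion. They are the 30 rows of the deposited table whose name begins with U2 and a dot, of 964 rows in all, and no row was left out for a low level. The iMLL-ENL group held 4 libraries of GMLPs from mice with an inducible form of MLL-ENL, a leukaemia fusion of MLL with ENL, a protein of transcription elongation. The WT group held 4 libraries of GMLPs from wild-type mice. In both groups the cells were sorted from bone marrow and kept in culture for 3 days with doxycycline, the drug that induces the fusion, so the WT libraries received the drug too. The labels give no sex, age or strain, and no promoter for the fusion. They do not say whether each replicate is a separate mouse, and the p-values then describe only the spread among these libraries, which may be technical. Neither the level of the fusion nor markers of GMLPs were analysed here.

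U2 forms a ribonucleoprotein particle that binds an intron at its branch point, by base pairing between a short stretch near the 5′ end of U2 and the branch site sequence. It belongs to the major spliceosome together with U1, which recognises the 5′ splice site, and with U4, U5 and U6. In mammals U2 comes from multicopy genes, and many further genomic copies are variants or pseudogenes. Guide RNAs of the Cajal body direct 2′-O-methylation and pseudouridylation of U2.

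Of the 30 row names, 0 matched a gene or transcript name in GENCODE release M21 or in the RefSeq gene table, so the rows have no coordinates, lengths or sequences here. To show what the family is, the annotated mouse U2 gene Rnu2-10, which is not a row name of the table, is printed from GENCODE M21. It lies at chr11:101658238-101658428 (GRCm38, plus strand), is an snRNA gene of 191 bases, and the letters below are its RNA written as DNA. Capitals mark GTAGTA, the branch point recognition sequence, at positions 33 to 38 counted from 1 at the 5′ end.
Rnu2-10: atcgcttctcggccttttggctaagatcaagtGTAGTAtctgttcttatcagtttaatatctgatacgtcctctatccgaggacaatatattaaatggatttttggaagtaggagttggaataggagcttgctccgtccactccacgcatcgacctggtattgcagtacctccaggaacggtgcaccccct

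Levels are given as reads per 1000000 (RPM) and are not divided by length. A read was worth 0.108 to 0.131 RPM in iMLL-ENL libraries and 0.130 to 0.169 RPM in WT libraries, estimated from the steps between values. By this estimate the U2 rows held 33669 to 45778 reads in an iMLL-ENL library and 18066 to 24809 reads in a WT library. A floor of 3 reads lay at 0.323 to 0.507 RPM, and it covers counting error only. WT replicate 2 stood apart. Over the 633 rows that passed the filter below, iMLL-ENL libraries correlated with the rest of their group at 0.990 to 0.994 on average, WT replicates 1, 3 and 4 at 0.955 to 0.968, and WT replicate 2 at 0.908. U2 copies share most of their sequence, so a read cannot be given to 1 copy with certainty, the rows are not independent, and whole molecules and fragments were not told apart.

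On the deposited scale U2 reads were higher in iMLL-ENL cells. The U2 rows summed to 4421, 3770, 4332 and 5734 RPM in iMLL-ENL replicates 1 to 4, against 2702, 2767, 3055 and 3478 RPM in WT replicates 1 to 4. Every iMLL-ENL library lay above every WT library on this scale. The means were 4564 ± 831 RPM in iMLL-ENL and 3001 ± 353 RPM in WT (SD, n = 4 each), a ratio of 1.52 and a log2 ratio of 0.61. No test was made on the sum, because the members were chosen with results of these data known. The size of the difference depended on the scaling: the log2 ratio was 0.20 after TMM scaling, which aligns the libraries on their common rows, and 0.87 when each library was set to an equal sum over the 964 rows. TMM divided each library by a factor, 1.18 for iMLL-ENL replicate 2 and 0.781 for WT replicate 3. After it the U2 sum of this iMLL-ENL library lay below that of this WT library, so the groups overlapped. As a share of the sum over the 964 rows, U2 took 1.55%, 1.41%, 1.67% and 1.96% in iMLL-ENL replicates 1 to 4 and 0.808%, 0.720%, 0.916% and 1.16% in WT replicates 1 to 4. In a sample of many cells, fewer cells with a high level and less RNA per cell cannot be told apart.

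**Figure D1:**
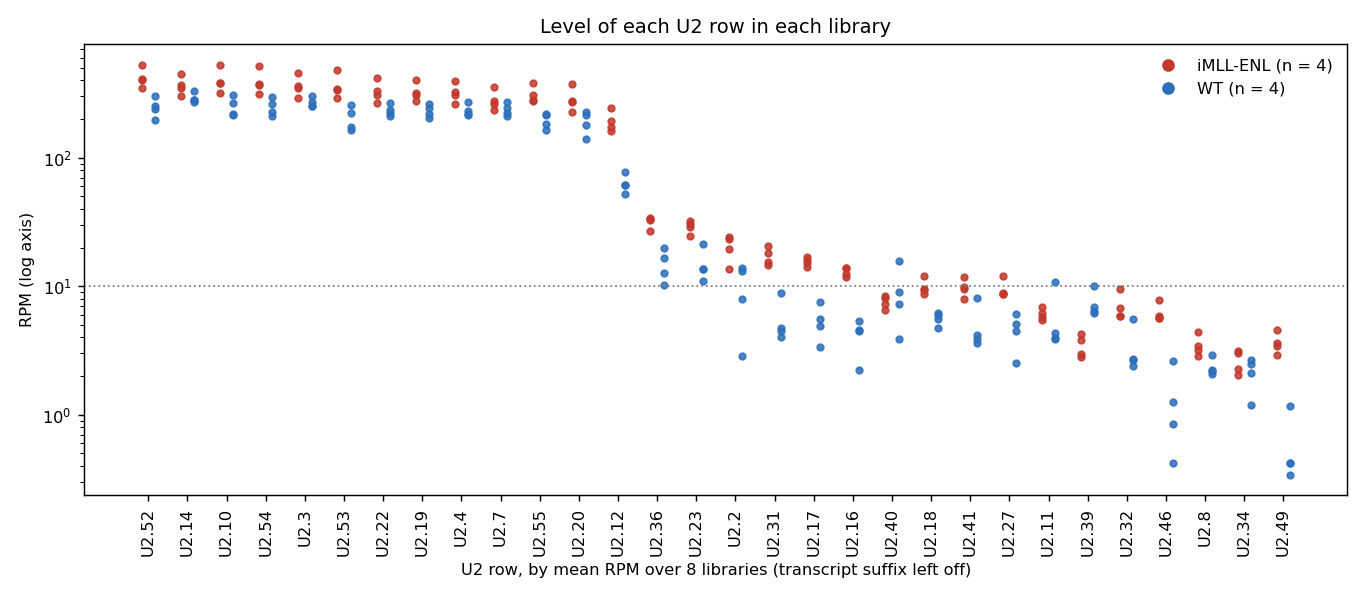
Level of each of the 30 U2 rows in RPM on a log axis, with a point for each of the 4 iMLL-ENL libraries (left of each pair) and the 4 WT libraries (right), ordered by the mean over 8 libraries. The dotted line marks 10 RPM, the level used by the filter. The 12 rows at the left lie between 141 and 531 RPM in every library, U2.12-201 stands alone below them, and the remaining 17 rows have means of 2.10 to 23.3 RPM.

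Reads fell on the rows very unevenly. By their means over the 8 libraries, 12 rows held 239.5 to 335 RPM each, U2.12-201 held 128 RPM, and 17 rows held 2.10 to 23.3 RPM. These 3 levels were set apart after the values were seen, and they compare reads per row, not per length. The 12 abundant rows together took 91.6%, 90.4%, 90.9% and 92.6% of the U2 sum in iMLL-ENL replicates 1 to 4, against 94.6%, 93.0%, 95.3% and 95.1% in WT replicates 1 to 4. They therefore carried the U2 sum in both groups, with a lower share in every iMLL-ENL library. Their levels moved together over the libraries: the median correlation between pairs of abundant rows was 0.959 and the lowest 0.757 (log2 scale, 8 libraries, with the group difference included). This is a description, since such copies can share reads.

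Rows were compared with limma on log2(RPM + 1), where at least 4 libraries reached 10 RPM. This kept 633 rows of the table and 19 of the 30 U2 rows, and p-values were adjusted over the 633 by the Benjamini-Hochberg method at 0.05. In this fit 12 of the 19 U2 rows were higher in iMLL-ENL cells, 0 were lower (also 0 at an unadjusted p under 0.05, against 17 higher) and 7 did not pass. Of all rows tested, 20.4% were called higher and 8.53% lower. The median log2 fold change was 0.67 over the 19 U2 rows and 0.31 over the 633. Of the 19, 3 rows (U2.31-201, U2.17-201 and U2.16-201) passed the filter only through the iMLL-ENL libraries, so they had to differ, and all 3 were called. The remaining 16 gave 9 of the calls. After TMM scaling 5 of the 19 were called higher, when 5.53% of all rows tested were. These 5 were U2.12-201, U2.36-201 and the 3 rows that had to differ. Leaving out WT replicate 1 gave 5 (7.27% of all rows) and leaving out iMLL-ENL replicate 3 gave 7 (10.4% of all rows), so calls became fewer over the whole table in these fits too. The same 3 rows are counted in both numbers.

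**Figure D2:**
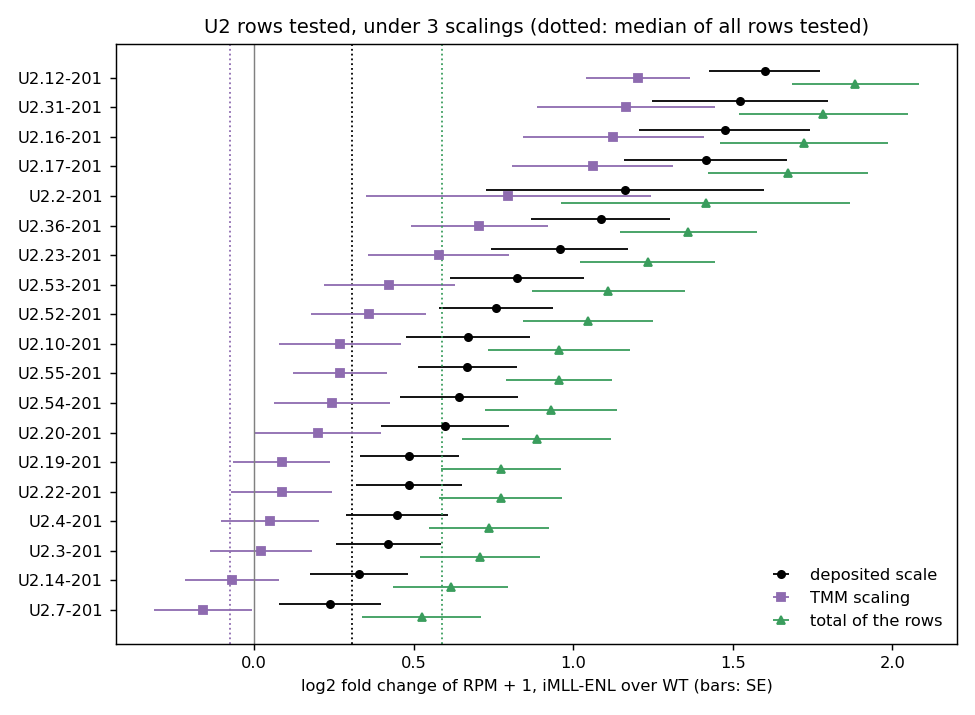
Log2 fold change of RPM + 1, iMLL-ENL over WT, for the 19 U2 rows tested (points, with SE as bars) on the deposited scale, after TMM scaling and with an equal sum of the rows in each library. Dotted lines mark the median of all 633 rows under the same scaling, 0.31, -0.08 and 0.59. Under each of these scalings U2.12-201 is at the top (1.60, 1.20 and 1.88) and U2.7-201 at the bottom (0.24, -0.16 and 0.52).

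U2.12-201 showed the largest log2 fold change of the U2 rows tested on the deposited scale with 1 RPM added. With 0.1 RPM added its log2 fold change was 1.61, below 1.68 in U2.31-201 and in U2.16-201, which passed the filter only through iMLL-ENL. U2.12-201 was at 175, 163, 192 and 242 RPM in iMLL-ENL replicates 1 to 4, against 51.9, 61.6, 60.9 and 76.95 RPM in WT replicates 1 to 4. The groups lay far apart, with the lowest iMLL-ENL library above the highest WT library by more than the range within either group. Its means were 193 ± 35.0 RPM in iMLL-ENL and 62.8 ± 10.4 RPM in WT (SD, n = 4 each), and its log2 fold change was 1.60 ± 0.17 (SE, limma adjusted p = 0.0018). Without WT replicate 2 it was 1.59. This row rose more than the U2 sum, and so did some low rows, described below. U2.12-201 took 3.95%, 4.32%, 4.43% and 4.22% of the U2 sum in iMLL-ENL replicates 1 to 4, against 1.92%, 2.22%, 1.99% and 2.21% in WT replicates 1 to 4.

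Shares do not depend on how the libraries were scaled. They were tested with the same limma model over the same 633 rows after each library had been rescaled to 1 common U2 sum. The adjustment also ran over these 633 rows, most of them outside U2, and the adjusted p of a U2 share depends on them. No adjustment over the U2 rows alone was made. Since the U2 rows add up to the U2 sum, gains of some rows are met by losses of others. U2.12-201 gained a log2 fold change of 1.01 ± 0.11 (SE) relative to the U2 sum, with an adjusted p of 0.0013 (limma). Its share passed the test in all 13 other settings in which it was tested, with log2 fold changes of 0.93 to 1.04. In this fit 2 U2 rows gained share and 1 lost share, at an unadjusted p under 0.05 these counts were 4 and 2, and over all 633 rows 2.21% were higher and 26.7% lower relative to the U2 sum. The other row that gained share was U2.16-201 (0.97 ± 0.30), which had passed the filter through iMLL-ENL alone and so had to be higher in level, and its call ended without any 1 of 6 libraries, all but WT replicates 2 and 3. Where the filter had to be met in both groups, a setting chosen after seeing the data, U2.12-201 was the 1 row of 16 that gained share.

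U2.7-201 was the row that lost share. It took 6.26%, 6.24%, 6.03% and 6.25% of the U2 sum in iMLL-ENL replicates 1 to 4, against 8.30%, 7.67%, 8.04% and 7.73% in WT replicates 1 to 4. No library of the groups overlapped. The log2 fold change of the share was -0.36 ± 0.10 (SE, limma unadjusted p = 0.0054, adjusted p = 0.023 over the 633 rows). The adjusted p rose to as much as 0.095 without 1 library: leaving out iMLL-ENL replicate 1, 2 or 3 or WT replicate 1 or 2 ended the call. In RPM it was at 277, 235, 261 and 358 in iMLL-ENL, against 224, 212, 246 and 269 in WT. These levels overlapped and did not pass the test (0.24 ± 0.16, adjusted p = 0.28), and the log2 fold change was -0.16 after TMM scaling.

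**Figure D3:**
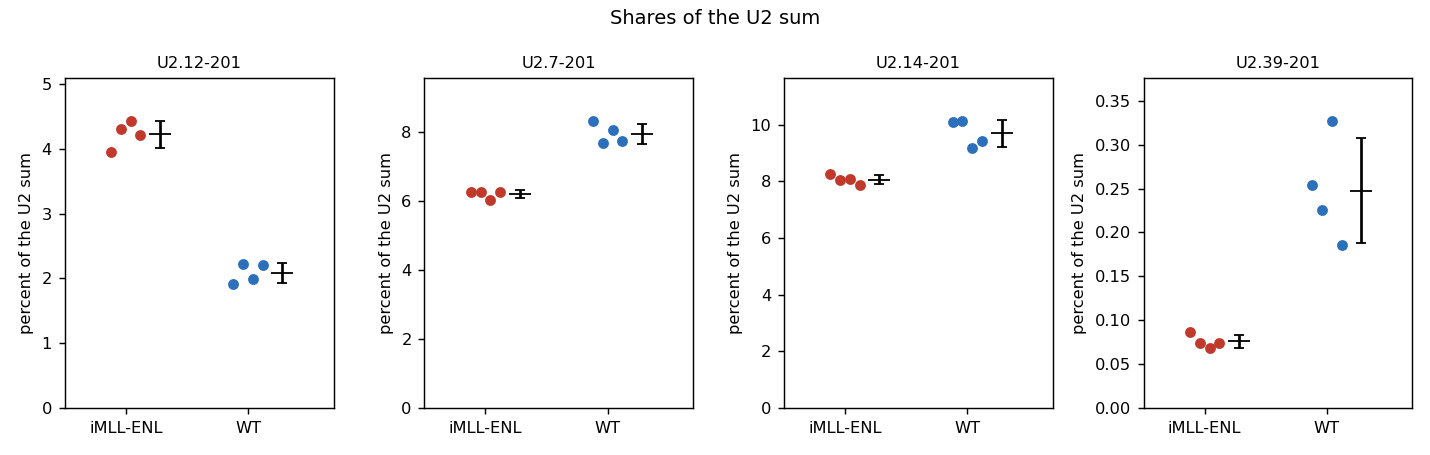
Percent of the U2 sum taken by U2.12-201, U2.7-201, U2.14-201 and U2.39-201, with a point for each iMLL-ENL library (left) and WT library (right) and the mean ± SD as a bar. U2.12-201 lies at 3.95% to 4.43% in iMLL-ENL and 1.92% to 2.22% in WT, and the other 3 rows lie lower in every iMLL-ENL library than in any WT library.

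Shares within the U2 sum did not overlap between the groups for 12 of the 30 rows, 6 higher and 6 lower in iMLL-ENL. Over all 964 rows the level relative to the U2 sum was higher without overlap in 5.71% and lower without overlap in 20.7%. Of the 12 abundant rows, 5 had a higher mean share in iMLL-ENL and 7 a lower one. U2.14-201, the abundant row with the largest share in WT, took 8.27%, 8.04%, 8.07% and 7.87% in iMLL-ENL replicates 1 to 4, against 10.1%, 10.1%, 9.18% and 9.43% in WT replicates 1 to 4. In iMLL-ENL libraries the largest mean share belonged to U2.52-201, at 9.24%, 9.27%, 9.29% and 9.17%, against 7.33%, 8.70%, 8.33% and 8.70% in WT. Neither share passed the limma test (U2.14-201: -0.26 ± 0.11, adjusted p = 0.10; U2.52-201: 0.16 ± 0.11, adjusted p = 0.36).

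Among the 12 abundant rows 6 were called higher in RPM and 6 did not pass, beside 20.4% called higher over all rows tested. The log2 fold changes of these 12 rows, which can share reads, ran from 0.24 to 0.82 with a median of 0.54. U2.52-201 was at 408, 349, 402 and 526 RPM in iMLL-ENL replicates 1 to 4 and at 198, 241, 254 and 302 RPM in WT replicates 1 to 4, with no overlap (0.76 ± 0.18, limma adjusted p = 0.017). With TMM scaling the call ended (0.36, limma adjusted p = 0.19), as it did when WT replicate 1 was left out (adjusted p = 0.058). U2.10-201 was at 381, 317, 380 and 531 RPM in iMLL-ENL and at 217, 214, 268 and 305 RPM in WT, also without overlap (0.67 ± 0.19, adjusted p = 0.034). Very close to it in every library lay U2.54-201, at 374, 312, 369 and 515 RPM in iMLL-ENL and at 211, 228, 261 and 295 RPM in WT (0.64 ± 0.18, adjusted p = 0.032). Both lost the call after TMM scaling and when iMLL-ENL replicate 1, 3 or 4 or WT replicate 1 or 3 was left out, with an adjusted p of up to 0.092 without 1 library.

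U2.14-201 and U2.3-201, the other abundant rows among the 5 with the highest mean, did not pass the test. U2.14-201 was at 366, 303, 350 and 451 RPM in iMLL-ENL replicates 1 to 4, against 272, 280, 280 and 328 RPM in WT replicates 1 to 4 (0.33 ± 0.15, limma adjusted p = 0.13, and -0.07 after TMM scaling). U2.3-201 was at 360, 290, 347 and 460 RPM in iMLL-ENL, against 251, 252, 270 and 304 RPM in WT (0.42 ± 0.16, adjusted p = 0.079). In both rows iMLL-ENL replicate 2 lay within the range of the WT libraries. The rest of the abundant rows that were called were U2.53-201 (0.82), U2.55-201 (0.67) and U2.19-201 (0.49). U2.19-201 kept its call in 2 of the 8 fits that left out a library (adjusted p up to 0.11) and lost it after quantile normalization (adjusted p = 0.18). U2.53-201 lost its call without iMLL-ENL replicate 1 or 3 or WT replicate 1 (adjusted p up to 0.075), and U2.55-201 without WT replicate 1 (adjusted p = 0.058). All 6 calls among the abundant rows ended after TMM scaling. The rest that did not pass were U2.20-201 (0.60, adjusted p = 0.0502), U2.22-201 (0.49, adjusted p = 0.053), U2.4-201 (0.45, adjusted p = 0.061) and U2.7-201, described above. U2.20-201 had no overlap between the groups, at 228 to 377 RPM in iMLL-ENL and 141 to 225 RPM in WT.

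**Figure D4:**
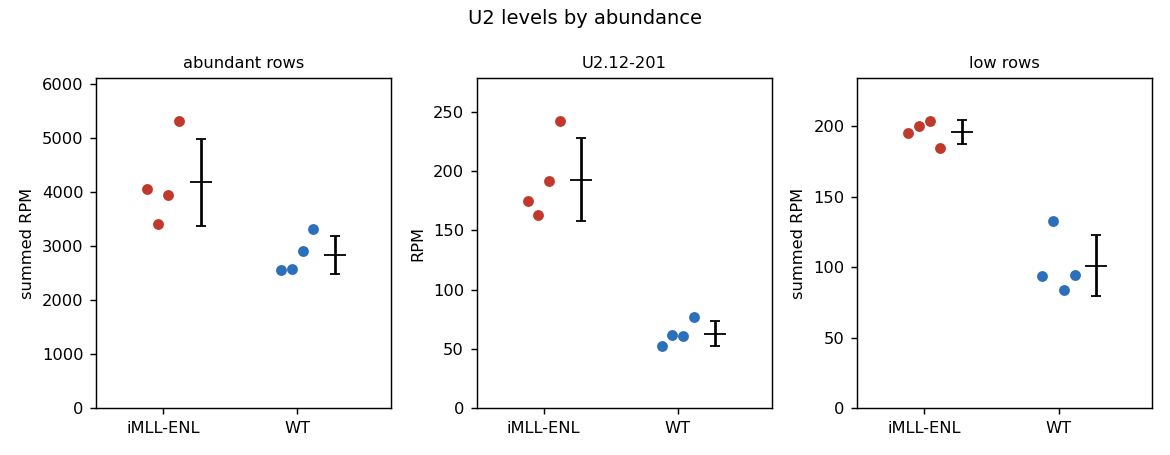
Summed RPM of the 12 abundant U2 rows (left panel), RPM of U2.12-201 (middle) and summed RPM of the 17 low rows (right), with a point for each iMLL-ENL library (left) and WT library (right) and the mean ± SD as a bar. The ratio of the means is 1.47, 3.07 and 1.94. iMLL-ENL replicate 4 is the highest iMLL-ENL library in the first 2 panels and the lowest in the third.

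The 17 low rows summed to 195, 200, 203 and 185 RPM in iMLL-ENL replicates 1 to 4, against 93.5, 132, 83.7 and 94.2 RPM in WT replicates 1 to 4. Their order over the libraries differed from that of the abundant rows. iMLL-ENL replicate 4 held the most reads of the abundant rows (5307 RPM) and the fewest of the low rows, and WT replicate 2 held the most reads of the low rows in WT. As a share of the U2 sum, the low rows took 4.41%, 5.32%, 4.70% and 3.22% in iMLL-ENL and 3.46%, 4.79%, 2.74% and 2.71% in WT, with overlap between the groups. Without WT replicate 2, 6 U2 rows in place of 2 gained share in the limma test: U2.12-201 and the low rows U2.31-201, U2.16-201, U2.17-201, U2.36-201 and U2.23-201. Over all rows the share of such calls was 5.06% in that fit, against 2.21% with all libraries, and 3 of the 6 rows (U2.31-201, U2.16-201 and U2.17-201) had passed the filter through iMLL-ENL alone.

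Of the low rows 6 were tested and 5 of these were called higher, 3 of them the rows that passed the filter through iMLL-ENL alone. Over all rows tested 20.4% were called higher. U2.31-201 was at 14.6, 20.7, 18.2 and 15.5 RPM in iMLL-ENL replicates 1 to 4, against 4.76, 8.83, 4.06 and 4.49 RPM in WT replicates 1 to 4 (1.52 ± 0.27, limma adjusted p = 0.0080). U2.16-201 was at 12.3, 13.9, 11.7 and 13.8 RPM in iMLL-ENL, against 2.24, 5.33, 4.57 and 4.49 RPM in WT (1.47 ± 0.27, adjusted p = 0.0080). It lost the call after quantile normalization, where the adjusted p was 0.056. U2.17-201 was at 15.1, 16.8, 15.9 and 14.2 RPM in iMLL-ENL, against 5.60, 7.53, 3.38 and 4.91 RPM in WT (1.41 ± 0.26, adjusted p = 0.0080). U2.36-201, which reached 10 RPM in all 8 libraries, was at 33.0, 33.4, 33.7 and 27.05 RPM in iMLL-ENL, against 16.5, 19.9, 10.15 and 12.8 RPM in WT (1.09 ± 0.22, adjusted p = 0.010). In U2.31-201, U2.16-201 and U2.17-201 the filter itself kept the groups from overlapping, so their lack of overlap is no result. The groups also did not overlap in U2.36-201 and in U2.23-201, the last of the 5. U2.23-201 was at 24.8 to 32.0 RPM in iMLL-ENL and 10.99 to 21.2 RPM in WT (0.96, adjusted p = 0.015). Over all 964 rows, 29.3% were higher in iMLL-ENL without overlap. The call of U2.23-201 ended after TMM scaling and without iMLL-ENL replicate 3 or WT replicate 1. U2.2-201, tested and not called, was at 23.4, 13.6, 19.3 and 24.2 RPM in iMLL-ENL, against 7.98, 2.86, 13.2 and 13.7 RPM in WT (1.16 ± 0.44, adjusted p = 0.072). Its lowest library was WT replicate 2, and without that library the row passed (0.74, adjusted p = 0.016). Among U2 rows that passed the filter with WT libraries too, U2.12-201 and U2.36-201 kept their calls in every setting run. U2.31-201 and U2.17-201 also kept theirs in the settings they entered, but these settings kept the rows that had to differ, so nothing is read from that.

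Just inside the filter lay U2.16-201, whose lowest iMLL-ENL library was at 11.7 RPM. Just outside it lay U2.18-201 and U2.27-201, whose lowest iMLL-ENL library was at 8.64 RPM in each, with all WT libraries below that. These rows and U2.32-201 were higher without overlap, at 5.82 to 9.44 RPM in iMLL-ENL and 2.38 to 5.59 RPM in WT for U2.32-201. In U2.41-201, U2.11-201, U2.8-201 and U2.34-201 the groups overlapped, and U2.11-201 was at 5.46 to 6.83 RPM in iMLL-ENL and 3.89 to 10.8 RPM in WT, with WT replicate 2 the highest. The 11 U2 rows outside the filter had a higher mean in iMLL-ENL in 9 cases and a lower mean in 2, U2.39-201 and U2.40-201. With no filter, limma over all 964 rows called 18 of the 30 U2 rows higher and 1 lower, against 23.9% and 5.39% of all rows. Without any model, 18 of the 30 rows were higher in iMLL-ENL with no overlap and 1 was lower, against 29.3% and 7.99% of all 964 rows.

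Among the rows outside the filter, the widest differences in either direction were at low counts, and the rows named next were picked with their values known. U2.49-201 was at 2.89, 4.53, 3.41 and 3.63 RPM in iMLL-ENL replicates 1 to 4, against 0.42, 1.17, 0.34 and 0.42 RPM in WT replicates 1 to 4. By the estimate from the steps these were 22, 42, 30 and 29 reads in iMLL-ENL and 3, 9, 2 and 3 reads in WT, so 3 WT libraries lay at or under the floor. U2.46-201 was at 5.91, 7.87, 5.69 and 5.64 RPM in iMLL-ENL, against 1.26, 2.60, 0.85 and 0.42 RPM in WT. Its WT values were 9, 20, 5 and 3 reads by the same estimate, so WT replicate 4 lay at the floor. In limma without a filter the log2 fold changes were 1.56 ± 0.20 for U2.49-201 (adjusted p = 0.0024) and 1.75 ± 0.29 for U2.46-201 (adjusted p = 0.0055), on a scale that understates the change of low rows. Relative to the U2 sum they were 1.23 ± 0.26 for U2.49-201 (limma adjusted p = 0.012) and 1.33 ± 0.36 for U2.46-201 (adjusted p = 0.031). In that fit of shares without a filter 4.25% of all rows were called higher.

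U2.39-201 went against its family. It was at 3.81, 2.80, 2.96 and 4.26 RPM in iMLL-ENL replicates 1 to 4, against 6.86, 6.23, 9.98 and 6.45 RPM in WT replicates 1 to 4, which correspond to 26 to 34 and 46 to 59 reads. The groups did not overlap, and the row fell by 0.90 ± 0.22 on the log2 scale in limma without a filter (adjusted p = 0.018). Relative to the U2 sum the log2 fold change was -1.40 ± 0.21 (adjusted p = 0.0046 in the same fit without a filter). U2.40-201, the other row with a lower mean, was at 6.51 to 8.41 RPM in iMLL-ENL and 3.89 to 15.6 RPM in WT, with the highest value in WT replicate 2, and did not pass the test (adjusted p = 0.89).

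The authors' deposited table called 7 U2 rows at a false discovery rate under 0.05: U2.49-201, U2.46-201, U2.12-201, U2.31-201, U2.16-201 and U2.17-201 higher and U2.39-201 lower. Of all rows in the authors' deposited table, 4.56% were called higher and 11.9% lower. In the authors' deposited table the log2 fold change was 1.21 for U2.12-201 and -1.51 for U2.39-201. For the 12 abundant rows the authors' deposited table gave log2 fold changes of -0.16 to 0.41, with 0 called and a lowest false discovery rate of 0.47. Its median log2 fold change was -0.095 over all rows, against 0.31 over the rows tested here.

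Set against the other snRNAs of the major spliceosome, U2 was proportionally lower in iMLL-ENL than U4, the base-pairing partner of U6. The U2 sum was 52.3, 28.0, 40.8 and 52.0 times the U4 sum in iMLL-ENL replicates 1 to 4, against 67.7, 78.3, 76.9 and 75.9 times in WT replicates 1 to 4. The ratio was lower in every iMLL-ENL library than in any WT library. U4 itself summed to 109 ± 20.6 RPM in iMLL-ENL and 40.2 ± 4.31 RPM in WT (SD, n = 4 each). Relative to U1, the U2 sum was at 0.322, 0.145, 0.342 and 0.309 in iMLL-ENL, against 0.305, 0.173, 0.398 and 0.191 in WT. The U2 to U5 ratio was 2.06 to 4.20 in iMLL-ENL and 1.25 to 4.22 in WT. For U6 the ratio was 1.81 to 3.24 in iMLL-ENL and 0.418 to 4.09 in WT. The groups overlapped in these last 3 ratios, and the WT libraries spread more widely than the iMLL-ENL libraries. These are ratios of reads, not of molecules per length.

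**Figure D5:**
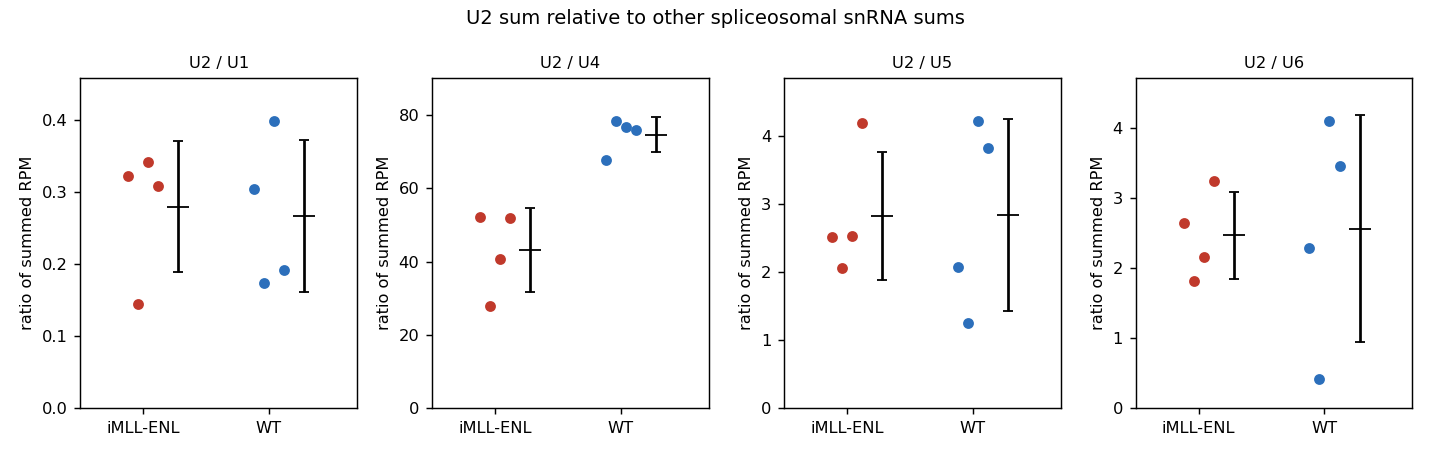
Ratio of the U2 sum to the sums of U1, U4, U5 and U6 rows in each iMLL-ENL library (left) and WT library (right), with the mean ± SD as a bar. The ratio to U4 lies at 28.0 to 52.3 in iMLL-ENL and 67.7 to 78.3 in WT, and the ratios to U1, U5 and U6 overlap between the groups.

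By row, the limma test called 4 of 27 tested U1 rows, 2 of 2 U4 rows, 1 of 7 U5 rows and 5 of 87 U6 rows, each of them higher in iMLL-ENL and none lower. Their median log2 fold changes were 0.51 for U1, 1.48 for U4, 0.43 for U5 and 0.30 for U6, beside 0.67 for U2 and 0.31 for all rows tested. Over all rows tested, 20.4% were called higher and 8.53% lower, and U1, U5 and U6 rows were called higher less often than that. In the minor spliceosome, which removes a rare class of introns and uses U12 where the major one uses U2, 1 of 2 tested U12 rows was called higher, and 0 of 1 U11 and 0 of 1 U6atac rows were called (-0.49 for the U6atac row). The U2 to U12 ratio was 25.7, 25.1, 25.0 and 26.8 in iMLL-ENL replicates 1 to 4, against 27.9, 41.2, 25.0 and 27.3 in WT replicates 1 to 4. Apart from WT replicate 2, set aside here with its value known, the ratio lay between 25.0 and 27.9 in the other 7 libraries. WT replicates 1, 2 and 4 lay above every iMLL-ENL library and WT replicate 3 did not, so the groups overlapped.

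Of 7 guide RNAs known in human to direct modification of U2, 4 were matched by name, as 5 rows. Scarna2-201, a box C/D guide of methylation, was at 59.1 ± 11.98 RPM in iMLL-ENL and 25.0 ± 10.2 RPM in WT (SD, n = 4 each) and rose by a log2 fold change of 1.27 ± 0.29 (SE, limma adjusted p = 0.016). Scarna9-201, another box C/D guide, was at 32.5 ± 3.63 RPM in iMLL-ENL and 20.01 ± 3.04 RPM in WT (0.68 ± 0.16, adjusted p = 0.017). In both rows the groups did not overlap. Beside these, 20.4% of the 633 rows tested were called higher, and 29.3% of all 964 rows were higher without overlap. SCARNA1.1-201, a box H/ACA guide of pseudouridylation, was at 35.6 ± 6.31 RPM in iMLL-ENL and 52.0 ± 40.7 RPM in WT and did not pass (-0.29 ± 0.42, adjusted p = 0.64). Its WT mean was raised by WT replicate 2 at 112 RPM, with the other WT libraries at 23.8 to 37.7 RPM. The 2 rows of SCARNA15 lay outside the filter, at 3.79 ± 0.74 and 4.59 ± 0.57 RPM in iMLL-ENL and at 1.82 ± 0.68 and 2.13 ± 1.05 RPM in WT.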

How the data were processed

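Small RNA libraries of 4 iMLL-ENL and 4 WT samples were made with the QIAseq miRNA kit from total RNA, per the labels' protocols. The deposited table gives RPM values per library. Its authors label them TPM, but all values under 10 RPM in a library were multiples of 1 shared step (tolerance 0.0055 RPM), which a division by length would not leave. The log2 fold change, mean log2 CPM, p-value and FDR columns are those of the authors, per the file headers. The genome build was GRCm38, per the submitters' processing notes. For the aligner, counter, annotation and treatment of multiply mapped reads, the sources used here give nothing. With reads of near-identical copies, that treatment could move values between U2 rows.

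Models were fitted in R 4.3.3 by limma 3.58.1 (robust fits through statmod 1.5.0) with a trended, robust prior on log2(RPM + 1) over rows with at least 10 RPM in at least 4 libraries, two-sided, with Benjamini-Hochberg adjustment over all rows tested. For shares, each library was first rescaled to the mean U2 sum. The filter was applied on the deposited scale and kept for the other scalings and for left-out libraries. The fit was tested on simulated data. Python 3.11.15 with numpy 2.4.6, pandas 2.3.3 and matplotlib 3.10.9 gave sums, shares and figures. The members, lists and tests were chosen with earlier results of these data known. Full values were given for the 5 U2 rows with the highest mean RPM and the 5 called rows with the largest change, and other rows were named as stated. The alternatives were TMM with precision weights, quantile normalization, an equal sum of the rows in each library, pseudocounts of 0.1 and 10 RPM, no filter, a replicate block, leaving out each library, and, chosen after seeing the data, a filter also met by 2 libraries of each group.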

Additional observations from a re-analysis of the deposited data

Results flagged for a closer look

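In groups of 4 libraries, 10 of the 62 sets of values checked (30 U2 rows and their sum, in 2 groups) had a library set far from the other 3. Chance flags about 1 in 20 such sets, and copies that share reads are not independent. WT replicate 2 was the library set apart in 5 of the 10, each time as the highest WT value and each time in a low row: U2.31-201 at 8.83 RPM, U2.41-201 at 8.05 RPM, U2.11-201 at 10.78 RPM, U2.32-201 at 5.59 RPM and U2.49-201 at 1.17 RPM. In iMLL-ENL cells U2.36-201 was lowest in replicate 4 at 27.05 RPM, U2.27-201 highest in replicate 3 at 12.06 RPM and U2.46-201 highest in replicate 2 at 7.87 RPM. In WT cells U2.14-201 was highest in replicate 4 at 327.84 RPM and U2.39-201 highest in replicate 3 at 9.98 RPM.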

How the results depend on the processing

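The number of U2 rows called higher was 12 of 19 (20.4% of all rows tested). It was 5 after TMM scaling (5.53% of all rows) and 19 (39.7%) with an equal sum of the rows in each library. The median log2 fold change of all rows was -0.08 and 0.59 in these fits, in place of 0.31. When a library was left out, the number was 5 to 16 (7.27% to 41.1% of all rows). Without WT replicate 2 it stayed at 12, while 41.1% of all rows were called higher. The 3 rows that passed the filter only through iMLL-ENL, and so had to differ, are counted in each of these numbers. With no filter, 1 row was called lower (5.39% of all rows). For shares of the U2 sum, with 2 rows higher and 1 lower (2.21% and 26.7% of all rows), no filter gave 4 and 2 (4.25% and 17.6%). Leaving out a library gave 1 to 6 and 0 to 1 (1.58% to 5.06% and 16.3% to 30.5%). The log2 ratio of the U2 sum was 0.61, against 0.20 after TMM scaling, 0.87 with an equal sum of the rows and 0.48 to 0.69 when a library was left out. With a replicate block 17 rows were called higher (23.9% of all rows), and for shares 3 higher (3.32%) and 0 lower, where U2.7-201 had an adjusted p of 0.068 in limma. Same-numbered libraries correlated in their deviations at 0.39, 0.29, -0.13 and 0.42. Since 1 of these was below 0, the numbers were not taken as pairs, although 6 of the 8 libraries correlated best with their own number. With the filter met in both groups, 11 of 16 rows were called higher (23.1% of all rows), and for shares 1 higher (2.17%) and 1 lower. Over the 19 rows and the 8 fits that each left out a library, a row lost its call in level 23 times and in share 11 times. The cause of these changes was not tested. The 2 planned edgeR fits on reads recovered from the steps were not run, since in 6 of the 8 libraries the smallest value was not 1 step. Depth limits U2.49-201 most, with 2 or 3 reads in 3 WT libraries.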
